A study of Mus musculus with 8 samples.

Results

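The peaks examined here are those of the Pol II pSer5 ChIP–seq table whose gene is listed there under a provisional symbol. Such a symbol is Gm followed by digits or a RIKEN clone name ending in Rik. Symbols beginning with Mir and a digit, Snhg or Snor belong to the same selection, which was made on the gene name alone and used no measured value. The selection was set with earlier results of these data known. It found 31 peaks of 31 genes among 1761 peaks, of which 1355 had an assigned gene, leaving 1324 other assigned peaks for comparison. There were 18 Gm and 13 Rik genes, and 0 genes of the Mir, Snhg or Snor kind. The table types all 31 as protein coding, so that "noncoding" does not describe the peaks found by name. In the GENCODE M21 annotation 26 of the 31 still carried a Gm or Rik symbol. There 29 of the 31 were protein coding, *Gm5464* was a lincRNA and *A130051J06Rik* an antisense RNA. The noncoding genes were instead in rows without a gene name. Of 95 such assigned rows, 78 (of 74 genes) carried a symbol of the same pattern in GENCODE M21 when looked up by gene ID, and 73 of these 78 had a noncoding type in the table. These 78 peaks were 44 of Gm, 31 of Rik, 2 of Mir and 1 of Snhg genes. They are described beside the 31 and are called the peaks recovered by gene ID. All 95 rows without a gene name also count among the 1324 other assigned peaks. So do 12 peaks of 5 genes that the table names otherwise but whose GENCODE M21 symbol has the pattern. Those 12 are not described here.

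Lung smooth muscle cells (SMCs) had been sorted by FACS, after depletion of CD45 and Ter119 positive blood cells, from adult C57BL/6 mice, and treated with DRB (100 µmol, 4 °C, 1 h) before Pol II phosphorylated at serine 5 was precipitated. The Tet3smKO:T cells came from Tet3 fl/fl mice with the tamoxifen-inducible α-SMA-ERT2Cre2 transgene, which acts only in cells that use the smooth muscle α-actin promoter, and a ROSA26 tdTomato reporter. Across the paper's experiments Ctrl mice carried the Cre, the reporter or both without the floxed *Tet3* allele. The SMCs were sorted as tdTomato-positive cells, which needs both. Tamoxifen was given by intraperitoneal injection. The labels call the genotypes WT (Ctrl) and Mut (Tet3smKO:T). There were 2 immunoprecipitated libraries per genotype, and 4 input libraries that have no values in the table. The methods speak of biological replicates in general, but no source used here ties each library to an animal, so the p-values measure the spread between these libraries. Of 27 marker genes of SMCs and other lung cells, 0 had an assigned peak, including 0 of 10 SMC markers such as *Acta2* and *Myh11*, so the table itself does not show the cell type. *Tet3* had 0 assigned peaks, so its deletion cannot be checked in the table either. The values are normalized reads per peak rounded to whole numbers, and summed to between 25673 and 27058 per library. Gaps and doublings in the series of whole numbers put the value of 1 read between 0.69 and 1.26. That corresponds to about 21543 to 37207 reads in peaks per library and 11 to 19 reads in a median peak. The estimate takes each value as whole reads times 1 factor per library, which the authors' subtraction of input need not preserve.

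Gm symbols are given to mouse genes predicted from sequence and Rik symbols to genes known first from full-length cDNA clones. Some lie at the promoter of an established gene on the opposite strand, either starting away from it or starting inside it and running out across its start in antisense. Others are long read-through models that span a well-known gene, or belong to tandemly duplicated gene families. Pol II phosphorylated at serine 5 collects just downstream of active starts, and DRB, which blocks the kinase that releases paused polymerase, holds it there. A peak is assigned to a gene without regard to strand, and ChIP reads cannot say on which strand the polymerase moved.

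6 peaks show the kinds of sequence behind these symbols, printed from the GRCm38.p6 genome on its plus strand, with each CG dinucleotide in capitals because its density separates CpG island promoters from other sites. They are the peak with the highest value of the 31 (*Gm26558*, central 300 nt at chr2:70661341-70661640), a peak far from the TSS of its own gene (*Gm42906*, central 300 nt at chr5:151368597-151368896), the 2 peaks with an unadjusted p under 0.05 (*Gm10642*, chr9:70657151-70657402, and *1700012B07Rik*, chr11:109817525-109817665), and 2 near-identical peaks of a gene cluster (*Gm13277*, chr4:88805932-88806134, and *Gm13283*, chr4:88760536-88760795).
Gm26558: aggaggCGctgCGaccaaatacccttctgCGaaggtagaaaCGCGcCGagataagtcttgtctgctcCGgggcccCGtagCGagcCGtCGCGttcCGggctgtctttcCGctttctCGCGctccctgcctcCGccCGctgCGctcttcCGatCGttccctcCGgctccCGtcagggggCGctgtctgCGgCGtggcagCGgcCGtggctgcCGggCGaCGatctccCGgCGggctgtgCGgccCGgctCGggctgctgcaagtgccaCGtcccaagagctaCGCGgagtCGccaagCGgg
Gm42906: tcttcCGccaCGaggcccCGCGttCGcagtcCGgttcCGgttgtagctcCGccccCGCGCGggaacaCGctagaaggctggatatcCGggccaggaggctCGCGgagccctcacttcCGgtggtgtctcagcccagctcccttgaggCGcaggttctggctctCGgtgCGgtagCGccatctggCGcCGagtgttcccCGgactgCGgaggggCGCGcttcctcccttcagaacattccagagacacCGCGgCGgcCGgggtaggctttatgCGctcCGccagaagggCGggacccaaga
Gm10642: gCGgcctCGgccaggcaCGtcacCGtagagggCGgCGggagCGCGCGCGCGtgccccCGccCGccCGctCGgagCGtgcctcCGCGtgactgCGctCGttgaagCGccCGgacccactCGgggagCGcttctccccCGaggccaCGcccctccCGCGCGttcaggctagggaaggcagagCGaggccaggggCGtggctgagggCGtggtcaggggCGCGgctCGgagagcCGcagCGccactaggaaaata
1700012B07Rik: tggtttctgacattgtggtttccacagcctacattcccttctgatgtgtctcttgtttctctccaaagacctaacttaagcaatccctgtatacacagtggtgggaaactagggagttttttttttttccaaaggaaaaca
Gm13277: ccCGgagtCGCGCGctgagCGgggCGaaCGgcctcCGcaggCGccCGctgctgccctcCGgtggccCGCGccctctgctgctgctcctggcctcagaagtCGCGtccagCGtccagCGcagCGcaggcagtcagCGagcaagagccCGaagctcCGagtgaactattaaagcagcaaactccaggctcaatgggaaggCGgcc
Gm13283: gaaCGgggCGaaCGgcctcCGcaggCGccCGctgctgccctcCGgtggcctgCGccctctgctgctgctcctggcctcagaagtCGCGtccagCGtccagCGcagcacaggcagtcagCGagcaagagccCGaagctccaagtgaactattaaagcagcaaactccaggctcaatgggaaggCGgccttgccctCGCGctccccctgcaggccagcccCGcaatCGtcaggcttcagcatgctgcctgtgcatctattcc
The *Gm26558* and *Gm42906* stretches held 41 and 33 CG in 300 nt, and the *Gm10642* peak 37 in 252 nt. The *1700012B07Rik* peak held 0 CG in 141 nt at a GC content of 40.4%. The *Gm13277* and *Gm13283* peaks were identical at 183 of 187 aligned positions (97.9%).

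Gm and Rik peaks lay farther from the TSS of their gene than other peaks did. The median distance of the peak centre from the TSS was 807 nt for the 31 peaks and 65.5 nt for the 1324 other assigned peaks, and the quartiles were 288 and 10263 nt against 28 and 464 nt. Within 500 nt of the TSS lay 12 of 31 centres (38.7%, exact binomial 95% interval 21.8 to 57.8%, which covers counting error only) against 1002 of 1324 (75.7%). Beyond 5000 nt lay 11 (35.5%) against 219 (16.5%). Only 3 of the 31 centres (9.68%) lay upstream of the TSS, whereas 530 of 1324 (40.0%) did. These 3 were *1110004E09Rik* (75 nt, now *Cfap298*, a gene of cilia), *3110062M04Rik* (26 nt, now *Cyren*, a regulator of DNA end joining) and *2810408M09Rik* (16 nt in the table, now *Trp53rka*, a kinase that acts on p53). In this they resembled the usual promoter peak, and all 3 belong to the Rik genes. Of the 13 Rik peaks the median distance was 259 nt, and of the 18 Gm peaks 1905 nt. The peaks recovered by gene ID had a median distance of 870 nt, with 30 of 78 centres (38.5%) within 500 nt. These 78 are part of the 1324. Of the other assigned peaks with a gene name, 964 of 1229 centres (78.4%) lay within 500 nt. Peaks are not replicates of a condition, so the shares were compared without a test.

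**Figure D1:**
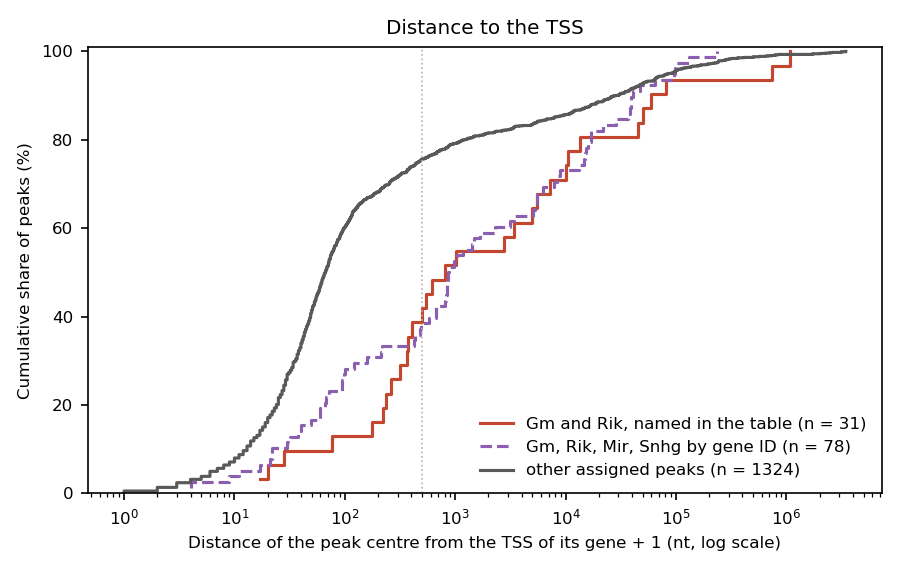
Cumulative share of peaks (vertical axis, %) against the distance of the peak centre from the TSS of the assigned gene plus 1 nt (horizontal axis, log scale) for 31 Gm and Rik peaks named in the table, 78 recovered by gene ID and 1324 other assigned peaks. The dotted line marks 500 nt, within which 38.7%, 38.5% and 75.7% of the centres lay. The 1324 include the 78.

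The overlap fraction moved in the same way, and it is not independent of the distance. A peak centred well past the TSS lies wholly within the gene unless it reaches the gene's end. The whole peak lay within the gene body in 27 of 31 Gm and Rik peaks (87.1%). It did so in 51 of 78 peaks recovered by gene ID (65.4%) and in 486 of 1324 other assigned peaks (36.7%). Of the 1229 other assigned peaks with a gene name, 34.4% did. The fraction was 1 in 18 of 18 Gm peaks. The 4 lower fractions were all of Rik genes and lay at the TSS, namely 0.3 for *1110004E09Rik* and *3110062M04Rik*, 0.4 for *2810408M09Rik* and 0.6 for *0610012G03Rik*. The centre fell in an exon of the assigned gene in 17 of 31 peaks, in an intron in 12 and outside the gene in 2. The genes themselves were shorter, with a median span of 9019 nt against 29143 nt for the other assigned genes.

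Many of these peaks sat at the start of another gene. A start of another protein-coding gene lay within 500 nt of the centre in 14 of 31 peaks (45.2%), compared with 237 of 1324 other assigned peaks (17.9%), and the nearest annotated transcript start belonged to another gene in 17 (54.8%) against 193 (14.6%). In 7 of the 31 it was the only such start, since the gene's own starts were farther away, a class that held 3.02% of the other assigned peaks. Counting the start of any gene, 21 of 31 centres (67.7%) lay within 500 nt of one, against 87.1% of the other assigned peaks. The gap of 37.0 percentage points between the 2 sets at the table's own TSS was therefore 19.3 points when the nearest start of any gene was used.

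**Figure D2:**
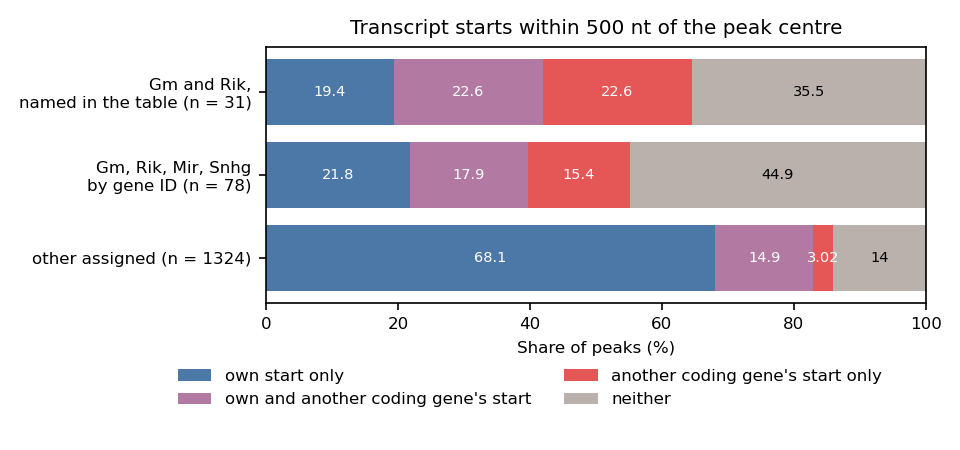
Share of peaks (horizontal axis, %) by which transcript starts of GENCODE M21 lay within 500 nt of the peak centre. Another coding gene's start was the only one for 22.6% of the 31 Gm and Rik peaks. It was 15.4% for the 78 recovered by gene ID and 3.02% for the 1324 other assigned peaks, which include the 78. For the 1229 other assigned peaks with a gene name it was 2.28%.

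In 10 of the 14 the other gene lay on the opposite strand and the centre upstream of its start. In 8 of these the provisional gene had its own TSS inside the other gene, 220 to 923 nt past that start, so that the annotations overlapped in antisense across it. In the other 2, *0610012G03Rik* and *Gm5464*, the starts pointed away from each other, 19 and 162 nt apart. *Gm26558* (chr2:70661318-70661662) overlapped the start of *Gorasp2*, which encodes a Golgi stacking protein, with the centre 86 nt from that start and 618 nt from its own TSS. Its values were 45 and 51 in the Ctrl libraries and 51 and 56 in the Tet3smKO:T libraries, so that the genotypes touched at 51. *Gm9887* (chr12:69371917-69372180) overlapped the start of *Arf6*, a small GTPase of membrane traffic, at 102 nt, with 24 and 28 in Ctrl against 21 and 26 in Tet3smKO:T. *Gm10518* (chr1:179803586-179803902) overlapped that of *Ahctf1*, a nuclear pore assembly factor, at 64 nt, with 25 and 23 in Ctrl against 21 and 29 in Tet3smKO:T. In both peaks the genotypes overlapped. *Gm10642* had its TSS 923 nt inside *Mindy2*, a deubiquitinase gene, and its peak 102 nt from the *Mindy2* start, and its values are given with the comparison of genotypes. The other 6 were *Gm10306* at *Caap1* (14 nt), *Gm10762* at *Zc3h6* (47 nt), *0610012G03Rik* at *Ncbp2*, a subunit of the nuclear cap-binding complex (39 nt), *4930507D05Rik* at *Supv3l1*, a mitochondrial RNA helicase (9 nt), *A130051J06Rik* at *Ano6*, a phospholipid scramblase (9 nt), and *Gm5464* at *Dpysl2* (478 nt).

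In the other 4 the Gm gene ran on the same strand as the gene at whose start the peak lay, and the peak was in an intron of the Gm gene. *Gm37988* (span 78879 nt) had its peak 87 nt from the start of *Tcea1*, the transcript cleavage factor of Pol II, and 49835 nt from its own TSS. Its values were 30 and 15 in Ctrl against 19 and 17 in Tet3smKO:T, and the Ctrl libraries lay on both sides of the others. *Gm28043* (span 88484 nt) had its peak 9 nt from the start of *Cmtr1*, a cap methyltransferase, with 23 and 14 in Ctrl against 19 and 16 in Tet3smKO:T. *Gm45713* peaked 252 nt from the start of *Rpl13a*, a ribosomal protein gene, and *Gm44973* 74 nt from the start of *Zfp865*, a zinc finger gene. Since the reads carry no strand, the signal of these 14 peaks cannot be divided between the provisional gene and its neighbour.

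The 10 peaks farthest from their TSS included *Gm37240*, *1700112E06Rik*, *3110082I17Rik*, *Gm42906*, *Gm37988*, *Gm28043*, *Gm27027*, *1700012B07Rik*, *A930004D18Rik* and *Gm45713*. The *Gm37240* peak (chr3:84814309-84814666) was 1073028 nt into a gene model of 1391091 nt and 781 nt upstream of a start of *Fbxw7*, which encodes a ubiquitin ligase subunit. It measured 25 and 39 in Ctrl against 38 and 32 in Tet3smKO:T, within the spread of the Ctrl pair. *1700112E06Rik*, now *Lrmda*, had its peak 740961 nt from the TSS in an intron, with the nearest transcript start of any gene 14572 nt away. The *Gm42906* peak (chr5:151368511-151368982), 59416 nt from its TSS, was 28 nt from a start of *1700028E10Rik*, and *3110082I17Rik* peaked 951 nt from the start of *Gpr146*, an orphan receptor gene. The table's TSS also passed over a closer start of the same gene in *A130010J15Rik*. Its peak was 5505 nt from the table's TSS and 26 nt from another annotated start of the gene. Closer own starts were annotated as well for *A930004D18Rik* (1098 nt), *1700012B07Rik* (3521 nt), *3110082I17Rik* (76359 nt), *1700112E06Rik* (164159 nt) and *Gm37240* (1072881 nt). Of the 11 peaks beyond 5000 nt, 3 lay within 500 nt of another coding gene's start and 5 within 500 nt of any start, compared with 16.9% and 39.3% of the 219 other assigned peaks beyond 5000 nt.

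Most of the peaks had the base composition of CpG islands. In windows of 300 nt around the centre, GC content had a median of 67.7% in Gm and Rik peaks, 66.7% in other assigned peaks and 65.7% in all 1761 peaks. A GC content above 50% with an observed to expected CpG ratio above 0.6 was found in 25 of 31 windows (80.6%), in 84.5% of the other assigned and in 78.1% of all windows. Beyond 5000 nt from the TSS, where 32.4% of the 219 other assigned windows met this description, 7 of 11 Gm and Rik windows (63.6%) did. The letters GGGCGG, the core of a GC box, stood on either strand in 20 of 31 windows (64.5%) and in 63.2% of all windows. The letters CCGGAAG of an ETS site were in 11 (35.5%) against 26.2%, CCAAT in 5 (16.1%) against 25.4%, and TATAAA in 1 (3.23%) against 4.49%. The CArG box, the element bound by serum response factor at contractile genes, was in 0 of 31 windows and in 0.511% of all windows. These are matches of letters and do not show binding.

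4 of the 31 peaks had a near-identical copy elsewhere on the same chromosome, defined as at least 95% identity over at least 80% of the peak. *Gm13277* and *Gm13283* had 13 copies each and lie on chromosome 4 among type I interferon genes. They have 8 and 10 *Ifn* genes such as *Ifnz* and *Ifna4* within 100000 nt. The gene ID listed for *Gm13277* has the symbol *Gm13288* in GENCODE M21. *Gm14412* had 13 copies on chromosome 2 and *2810408M09Rik* had 1. *Gm13277* measured 31 and 18 in Ctrl against 15 and 13 in Tet3smKO:T, while *Gm13283* measured 12 and 13 in Ctrl against 17 and 10 in Tet3smKO:T. Reads that fit several copies could have been counted at any of them, so the values of these 4 peaks are uncertain. Among the peaks recovered by gene ID, 8 of 78 had such a copy, 4 of them on chromosome 8. One of these was the highest peak of the table, assigned to the processed pseudogene *Gm10060*, with 108 and 129 in Ctrl against 96 and 105 in Tet3smKO:T. Another was the pseudogene *2610005L07Rik* with 72 and 76 in Ctrl against 78 and 83 in Tet3smKO:T.

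The level of Gm and Rik peaks was like that of other peaks. Their median values were 14 and 15 in the Ctrl libraries and 15 and 13 in the Tet3smKO:T libraries, where the other assigned peaks had 14 and 14, and 14 and 13. Over all 4 libraries the mean of a member peak ranged from 9 to 50.8. The highest after *Gm26558* were *Gm42906*, *Gm37240* and *1110004E09Rik*, the last with 38 and 33 in Ctrl against 34 and 28 in Tet3smKO:T. The 31 peaks held 2.10% and 2.07% of the summed values in the Ctrl libraries and 2.10% and 1.86% in the Tet3smKO:T libraries. The means of 2.08% ± 0.026 and 1.98% ± 0.17 (SD, n = 2 each) did not differ beyond the spread of the libraries (exact two-sided permutation test, p = 1, the smallest possible being 0.333).

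**Figure D3:**
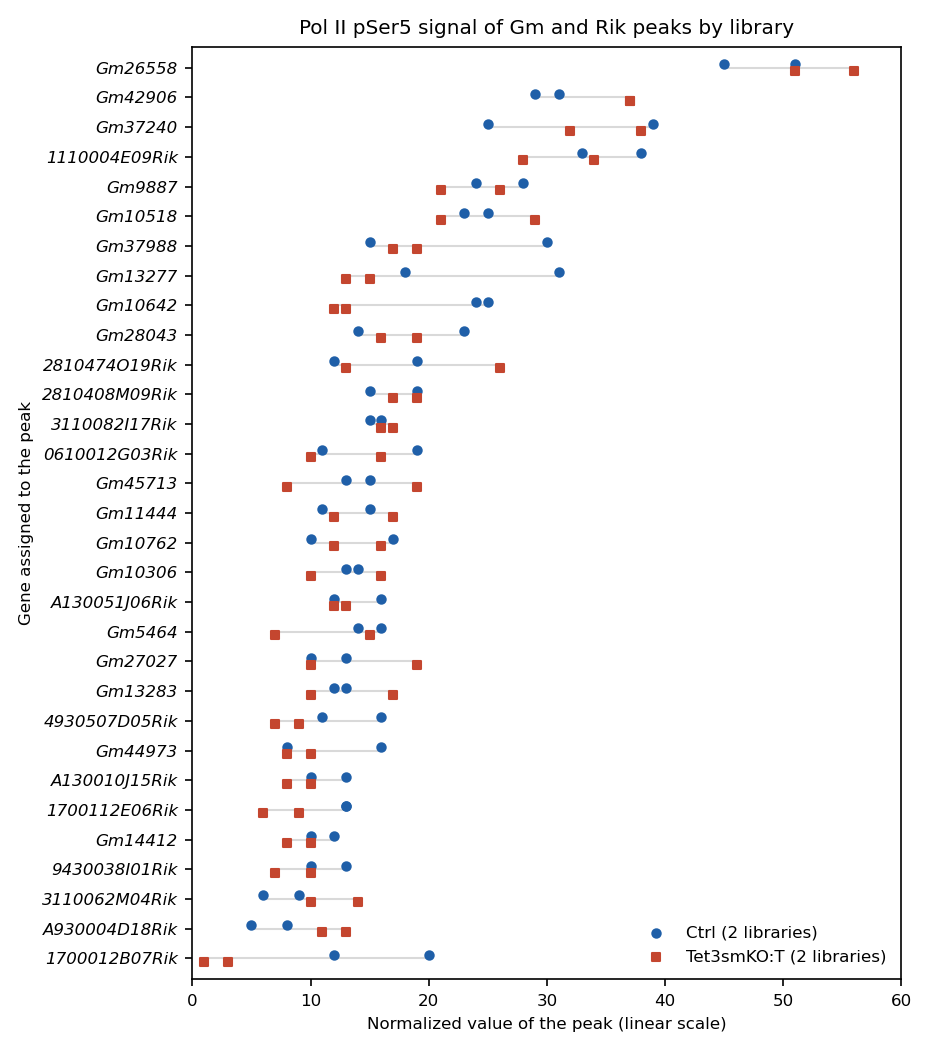
Normalized value (horizontal axis, linear scale) of each of the 31 Gm and Rik peaks (rows, ordered by mean) in the 2 Ctrl libraries (blue circles) and the 2 Tet3smKO:T libraries (red squares), with a grey line over the range of the 4 values. In 23 rows the genotypes overlap or touch, and the widest relative gap is that of *1700012B07Rik* at the bottom.

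No Gm or Rik peak differed between Tet3smKO:T and Ctrl past the threshold. With limma on log2(value + 1) over the whole table, 0 of 31 had an adjusted p under 0.05, as did 0% of the 1761 peaks, and the lowest adjusted p of a member was 0.681. With the values scaled by the total of each library, 6 of the 1761 peaks passed, again 0 of them members, and the lowest adjusted p of a member was 0.115. At an unadjusted p under 0.05 there were 0 higher and 2 lower members, beside 57 higher (3.24%) and 70 lower (3.98%) among all peaks. The values of the genotypes did not overlap in 3 higher and 5 lower members, against 302 higher (17.1%) and 293 lower (16.6%) of all peaks. The median log2 fold change was -0.14 for the 31 peaks, -0.01 for the other assigned peaks and -0.02 for all peaks, with 13 members above 0 and 18 below. Replicates of a genotype differed with an SD of 0.35 on this scale in the 31 peaks.

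The 2 members with an unadjusted p under 0.05 were *Gm10642* and *1700012B07Rik*. The *Gm10642* peak, at the start of *Mindy2* and 1025 nt from the TSS of *Gm10642*, measured 25 and 24 in Ctrl against 12 and 13 in Tet3smKO:T. Each pair differed by 1, and both Tet3smKO:T values were below both Ctrl values. The log2 fold change was -0.92 ± 0.25 (SE), with an unadjusted p of 0.0114 and an adjusted p of 0.681 by limma. The *1700012B07Rik* peak, in an intron 10451 nt from the TSS and 3521 nt from the nearest transcript start, measured 12 and 20 in Ctrl against 3 and 1 in Tet3smKO:T. Its log2 fold change was -2.55 ± 0.63, with an unadjusted p of 0.0073 and an adjusted p of 0.681 by limma. The fold change was -1.10 with a pseudocount of 10. *1700012B07Rik* was the lowest member, with a mean of 9 over the libraries, and its sequence printed above is the one without CG. Peaks were called per library and then unified, so a peak this low in Tet3smKO:T could have entered through the Ctrl libraries alone. The p-value makes no allowance for that.

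3 further members were lower without overlap. *1700112E06Rik* measured 13 and 13 in Ctrl against 9 and 6 in Tet3smKO:T (log2 fold change -0.74 ± 0.34). *4930507D05Rik*, at the start of *Supv3l1*, measured 11 and 16 in Ctrl against 9 and 7 in Tet3smKO:T (-0.68 ± 0.35). *Gm13277*, one of the copied peaks, had a log2 fold change of -0.72 ± 0.34, with a Ctrl pair that was itself apart by 13, and leaving out 1 library gave between -1.10 and -0.34. For *1700112E06Rik* this range was -1.0 to -0.49, and for *4930507D05Rik* -0.93 to -0.42. The adjusted p of these was between 0.695 and 0.715 by limma.

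3 members were higher without overlap. *A930004D18Rik* measured 5 and 8 in Ctrl against 13 and 11 in Tet3smKO:T (log2 fold change 0.82 ± 0.38, adjusted p = 0.696 by limma). *3110062M04Rik* measured 9 and 6 in Ctrl against 10 and 14 in Tet3smKO:T (0.62 ± 0.38, adjusted p = 0.716 by limma). *Gm42906* was one of the steadiest, with 29 and 31 in Ctrl against 37 and 37 in Tet3smKO:T (0.29 ± 0.21, adjusted p = 0.716 by limma). Leaving out 1 library gave 0.53 to 1.11 for *A930004D18Rik*, 0.36 to 0.88 for *3110062M04Rik* and 0.25 to 0.34 for *Gm42906*.

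**Figure D4:**
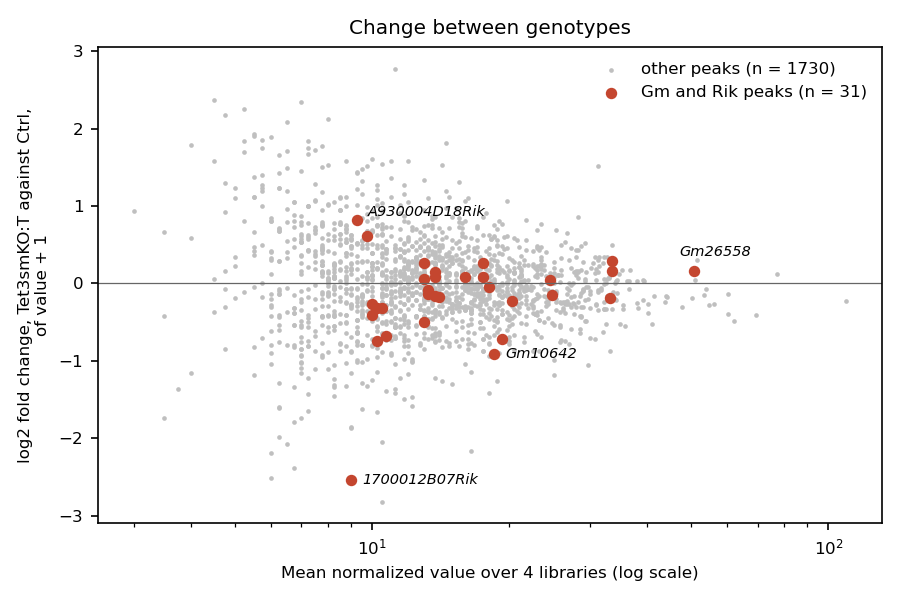
Log2 fold change of value + 1 between Tet3smKO:T and Ctrl (vertical axis) against the mean normalized value over 4 libraries (horizontal axis, log scale) for 31 Gm and Rik peaks (red) and 1730 other peaks (grey). The 31 peaks range from -2.55 for *1700012B07Rik* to 0.82 for *A930004D18Rik*.

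By position, the 14 peaks at another coding gene's start had a median log2 fold change of -0.15, with 3 above 0 and 11 below. The other 17 had 0.08, with 10 above 0 and 7 below. Of all 1761 peaks, 48.4% were above 0, and the other assigned peaks at another coding gene's start were not summarized. The 11 members beyond 5000 nt had a median of -0.04 and the 20 within 5000 nt one of -0.14, where the other assigned peaks had 0.11 and -0.03. These are descriptions of the members, and the differences were not tested.

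The peaks recovered by gene ID had a median log2 fold change of 0.02. At an unadjusted p under 0.05, 2 of the 78 were higher and 2 lower, beside 57 higher (3.24%) and 70 lower (3.98%) among all peaks. At the adjusted p, 0 of the 78 passed. Their genotypes did not overlap in 16 higher (20.5%) and 14 lower peaks (17.9%), near the 17.1% and 16.6% of all peaks. They held 4.83% and 5.44% of the summed values in Ctrl and 5.28% and 5.10% in Tet3smKO:T. *Gm27008*, an antisense RNA gene, measured 14 and 10 in Ctrl against 1 and 2 in Tet3smKO:T (log2 fold change -2.39 ± 0.74, adjusted p = 0.681 by limma). *9630028H03Rik*, antisense as well, measured 2 and 0 in Ctrl against 9 and 7 in Tet3smKO:T (2.37 ± 1.46, adjusted p = 0.716 by limma). With values this low its fold change rested on the pseudocount, at 4.13 with 0.1 and 0.71 with 10. It ranged from 1.58 to 3.16 when 1 library was left out. Both peaks were very low in 1 genotype. Since calls were made per library and then unified, each could have entered through the other genotype alone.

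The Mir and Snhg genes were all among the peaks recovered by gene ID. The *Mir22hg* peak, 159 nt from the TSS of the miR-22 host gene, measured 26 and 25 in Ctrl against 17 and 22 in Tet3smKO:T, and did not overlap between genotypes (log2 fold change -0.38 ± 0.26, adjusted p = 0.716 by limma). The *Mir1945* peak, 29 nt from the TSS of the miRNA gene and 91 nt from a start of *Gspt1*, a translation termination factor, measured 8 and 19 in Ctrl against 13 and 10 in Tet3smKO:T. *Snhg20*, by its name a host gene of small nucleolar RNA, measured 8 and 10 in Ctrl against 21 and 11 in Tet3smKO:T (0.71 ± 0.39, adjusted p = 0.716 by limma), so the separation rested on a margin of 1. Leaving out 1 library gave 0.27 to 1.14 for *Snhg20* and -0.56 to -0.20 for *Mir22hg*. The mature miRNAs of the 2 miRNA genes, from RefSeq on GRCm38.p6 with the seed in capitals, share no seed with each other.
miR-22-5p: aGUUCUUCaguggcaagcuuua
miR-22-3p: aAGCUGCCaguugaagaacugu
miR-1945: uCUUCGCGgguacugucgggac
Of 37 other well-known noncoding genes looked up, such as *Malat1*, *Neat1* and *Carmn*, 1 had an assigned peak (*Epb41l4aos*). Among symbols ending in os, *Frmd8os*, *Hoxb5os*, *Junos*, *Toporsos* and *Zmiz1os1* also had one. Of the Snora, Snord and Scarna genes, *Scarna2* did.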

How the data were processed

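Pol II pSer5 ChIP–seq of 2 Ctrl and 2 Tet3smKO:T immunoprecipitated libraries was analysed. The 4 inputs were not analysed here, and 0 columns of per-sample values were left unused. The authors trimmed and deduplicated single-end reads (with Reaper according to the paper's methods, whereas the submitters' processing notes list Trimmomatic 0.36, and with Picard 2.17.10), called peaks per library with MACS2, set thresholds by eye, removed blacklisted regions, unified and recounted the peaks, subtracted depth-normalized input and normalized with DESeq2. The aligner is not given in the sources used here. Each deposited value is thus a score, in which the authors expressed normalized reads as whole numbers. The authors also deposited how far the centre of a peak lay from the TSS, and the overlap with the gene as a fraction of the peak, rounded to 1 decimal.

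Members were taken by gene name. The members and gene lists were chosen with earlier results of these data known. All 1761 peaks were tested with limma 3.58.1 in R 4.3.3 (lmFit, eBayes with trend) on log2(value + 1), which understates changes of low peaks, adjusted after Benjamini–Hochberg and called under 0.05. Tested on simulated data (1761 peaks, 200 of them with a log2 change of 2), it called 111 changed and 0 unchanged peaks. Shares were compared by an exact permutation test. Transcript starts and gene IDs came from GENCODE M21, whereas the authors state another release. Coordinates were read as GRCm38 and 1-based as the table gives them, and may be off by 1 nt. Copies were found with BLAST 2.17.0. Python 3.11.15, scipy 1.17.1 and matplotlib 3.10.9 were used.

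Named peaks were the 10 with the highest mean, up to 5 higher and 5 lower without overlap, the 10 farthest from the TSS, the 3 farthest upstream and those at a coding start. Sequences were allowed for 6 of these. The *Gm13283* and miRNA sequences, the other peaks at coding starts beyond the first 5, the copied peaks, *Gm44973*, *A130010J15Rik* and the peaks recovered by gene ID were named after their values were seen. Alternatives covered the pseudocount, a filter, normalization, the replicate block, the distance limit and leaving out each library.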

Additional observations from a re-analysis of the deposited data

How the results depend on the processing

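The count of 0 members at an adjusted p under 0.05 was the same under every alternative run (pseudocounts of 0.1 and 10, the upper 75% of peaks, quantile normalization, scaling by the total, the replicate block and leaving out each library). At an unadjusted p under 0.05, 1 member was lower among the upper 75% of peaks and 3 were lower with scaling by the total (2 without it), and leaving out a library gave 0 to 1 higher and 1 to 4 lower members. Without Ctrl replicate 1 or Tet3smKO:T replicate 2 there was 1 lower member, without Tet3smKO:T replicate 1 there were 4, and without Ctrl replicate 2 there was 1 higher member. The median log2 fold change was -0.0048 with quantile normalization, 0.015 for the peaks recovered by gene ID, and -0.17 to -0.06 when a library was left out. The difference in the share of summed values, -0.103 percentage points, ranged from -0.225 to 0.019 and turned positive (0.019) without Tet3smKO:T replicate 2. The causes were not tested. The 12 fold changes given with an SE kept their direction and stayed short of the threshold in each alternative run for them. The filter to the upper 75% of peaks removed 4 of them (*1700012B07Rik*, *A930004D18Rik*, *Gm27008* and *9630028H03Rik*). The difference in the share of centres within 500 nt was -37.0 percentage points, -27.6 at 1000 nt, -18.9 at 5000 nt, -39.2 for noncoding gene types, -39.5 for the peaks recovered by gene ID and -34.9 without copied peaks, the last 2 chosen after seeing the data. Same-numbered libraries did not deviate together (correlation -0.07), and the replicate block gave 0 higher and 2 lower members, as without it. DESeq2 was not run, since the values are not raw counts. With an estimated 11 to 19 reads in a median peak, the fold changes carry counting error. It was not separated from the variation between libraries.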
